A study of Mus musculus with 6 samples.

Results

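Apical-basal polarity complexes are the protein assemblies that tell an epithelial cell which face points to the lumen and which to the basement membrane. The 10 genes described here encode the core of the Par complex (Pard3, Pard6b and Prkci), of the Crumbs complex (Crb3, Mpp5 and Inadl) and of the Scribble complex (Scrib, Dlg1 and Llgl2), and the basal kinase Par-1b (Mark2). They were taken by symbol from a table of 24067 genes, where all 10 were found, and their 25 annotated transcripts were taken from a table of 33819 transcripts. All 10 genes passed the filter on low values, a mean of at least 1 FPKM over the libraries (fragments scaled to the length of the transcript and to the size of the library), as did 19 of the 25 transcripts.

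The RNA came from submandibular glands, a branching salivary gland, of ICR mouse embryos at embryonic day 13. There were 3 control libraries and 3 libraries treated with blebbistatin, a small molecule that inhibits the motor of non-muscle myosin II. The labels name no other allele or agent. The sources used here do not give the dose, duration or vehicle, or how many glands were pooled into a library. The series title names epithelial buds, while every tissue label names the gland. Nothing in the labels says that libraries within a group stem from separate cultures, so the spread behind each p-value is that between these libraries and may be technical.

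The apical and the basolateral assemblies act against each other. As background, the Par and Crumbs complexes hold the apical side and the tight junction, where atypical protein kinase C phosphorylates basolateral proteins such as Lgl and Par-1 and so keeps them off the apical membrane. The Scribble complex and Par-1 hold the basolateral side and in turn restrict Par3. In cultured submandibular glands, Par-1b at the outer edge of the bud has been linked, under the control of the kinase ROCK, to where the basement membrane is laid down.

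The coding exons below are among those by which the annotated transcripts of Mark2 and Dlg1 differ inside the protein. The last stretch is the added part of an exon by which the 2 Llgl2 transcripts differ. These stretches are shown because the isoform results further on turn on them. Exon bounds are those of the deposited mm10 annotation, and the bases were read from GENCODE M21 transcripts (GRCm38, the same assembly), 5′ to 3′ on the strand of the gene. The capitals in the longer Dlg1 exon mark the 3 bases that transcript NM_007862 holds and NM_001252433 lacks.
Mark2 long exon, 162 bases, chr19:7281798-7281959, minus strand: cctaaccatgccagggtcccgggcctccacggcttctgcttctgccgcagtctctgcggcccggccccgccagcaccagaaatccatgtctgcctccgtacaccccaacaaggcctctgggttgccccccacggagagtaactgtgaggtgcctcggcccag
Mark2 short exon, 27 bases, chr19:7279986-7280012, minus strand: aaatctgtctttcaggtttgccagaag
Dlg1 upstream exon, 99 bases, chr16:31771757-31771855, plus strand: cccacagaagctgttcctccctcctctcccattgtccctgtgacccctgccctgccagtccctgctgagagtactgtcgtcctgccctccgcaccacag
Dlg1 longer exon, 100 bases, chr16:31846834-31846933, plus strand: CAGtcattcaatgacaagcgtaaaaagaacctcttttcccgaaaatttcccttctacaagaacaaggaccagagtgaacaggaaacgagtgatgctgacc
Dlg1 shorter exon, 34 bases, chr16:31847636-31847669, plus strand: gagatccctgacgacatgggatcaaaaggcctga
Llgl2 exon extension, 72 bases, chr11:115851159-115851230, plus strand: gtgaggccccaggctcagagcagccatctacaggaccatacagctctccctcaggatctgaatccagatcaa

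Estimated depth ranged from 27300000 to 33200000 fragments per library. Any pair of libraries had a Pearson correlation between 0.971 and 0.983 across genes, which are not independent replicates. All 8 epithelial markers were above 1 FPKM in mean, with a summed level of 1380 to 1763 FPKM in controls and 1280 to 1689 under blebbistatin. Other cell types were scarce. The 8 mesenchymal markers summed to between 5.56 and 21.3 FPKM in controls, highest in control replicate 1, and to between 4.29 and 9.09 under blebbistatin. The 5 endothelial markers summed to between 0.527 and 0.645 FPKM in controls and between 0.784 and 0.961 under blebbistatin, with Cdh5, Kdr and Emcn listed at 0 in at least 1 library. The 6 neuronal and glial markers summed to at most 3.36 FPKM and the 5 leukocyte markers to at most 2.75 FPKM in any library. In bulk RNA of this kind, fewer cells of a type and less RNA per cell cannot be told apart.

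Among the 10 genes, the largest difference between the groups was in Prkci, which encodes atypical protein kinase C iota, the kinase of the Par complex. Prkci stood 33.1% higher in mean FPKM under blebbistatin, with no overlap between the groups, but did not pass the adjusted threshold. Of the 10 genes, 0 passed an adjusted p of 0.05 (limma, Benjamini-Hochberg over 11540 genes), where 0.078% of all tested genes did. At an unadjusted p under 0.05 there was 1 member, Prkci, against 9.36% of all tested genes, and the groups did not overlap for the same 1 member, against 14.3% (7.48% for higher treated libraries, as here, and 6.8% for lower). These shares do not set the members apart from other genes. Means of log2(FPKM + 1) were higher under blebbistatin for 6 of 10 members (55.2% of all tested genes). Of these, Mpp5, Scrib and Mark2 had the opposite sign under quantile or median-of-ratios scaling. The median log2 difference, blebbistatin minus control of log2(FPKM + 1), was 0.0015 against 0.015 over all genes.

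**Figure D1:**
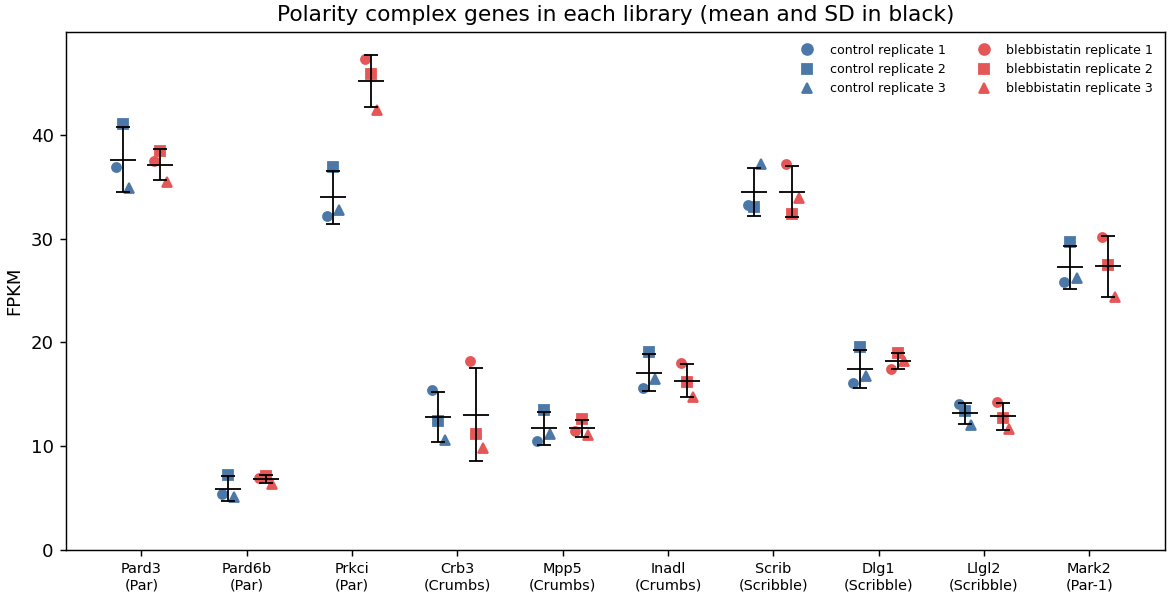
Level of each of the 10 genes in FPKM (vertical axis, starting at 0), with control libraries in blue, blebbistatin libraries in red, marker shape for the replicate number, and the group mean and SD in black. Prkci is the 1 gene whose treated libraries, at 42.4 to 47.3 FPKM, all lie above its controls, at 32.2 to 36.9 FPKM.

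In the Par complex, Prkci is the catalytic member, a kinase activated when Cdc42 binds its partner Par6. It lies on chromosome 3 from 30995771 to 31052740 with 1 annotated transcript of 18 exons. Prkci was at 32.2, 36.9 and 32.8 FPKM in control replicates 1 to 3 and at 47.3, 45.9 and 42.4 in blebbistatin replicates 1 to 3. Every treated library was above every control, and the lowest treated value exceeded the highest control by more than the SD of either group (33.96 ± 2.57 and 45.2 ± 2.52 FPKM, SD, n = 3). The log2 difference was 0.40 ± 0.09 (SE, unadjusted p = 0.0022, adjusted p = 0.155, limma), rank 164 by p among 11540 genes. Its size exceeded that of 95% of the genes tested. Leaving out any 1 library gave values from 0.367 to 0.463, and without control replicate 1, the library with the most mesenchymal marker RNA, it was 0.367 (adjusted p = 0.246). The summed endothelial markers also did not overlap between the groups, each library being below 1 FPKM. Of these markers, Pecam1 and Tek were higher in every treated library than in any control, Cdh5 was lower, and Kdr and Emcn overlapped. The part of these markers in the Prkci result was not tested.

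Pard3, the PDZ scaffold that brings Par6 and the kinase to junctions, lies on chromosome 8 from 127064056 to 127612286. It was at 36.9, 41.0 and 34.9 FPKM in controls and at 37.5, 38.5 and 35.5 under blebbistatin. The treated values lay inside the control range, with a log2 difference of -0.015 ± 0.09 (SE, adjusted p = 0.999). Pard6b, an adaptor that links the kinase to Cdc42, lies on chromosome 2 from 168081004 to 168101203. Its values were 5.36, 7.24 and 5.08 FPKM in controls and 6.93, 7.15 and 6.36 under blebbistatin. Control replicates 1 and 3 were lower than all treated libraries and control replicate 2 was higher than all of them, so the groups overlapped (log2 difference 0.19 ± 0.13, adjusted p = 0.809). Leaving out control replicate 2 gave 0.33, and leaving out control replicate 3 gave 0.11.

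Within single libraries the balance of kinase to scaffold did not overlap between the groups. The ratio of Prkci to Pard3 in FPKM was 0.872, 0.900 and 0.940 in controls and 1.26, 1.19 and 1.20 under blebbistatin. Pard3 was thus the more abundant of the pair in every control and Prkci in every treated library. The ratio of Prkci to the summed Par6 genes was 0.967 ± 0.105 in controls and 1.22 ± 0.073 under blebbistatin (SD, n = 3), also without overlap. The ratio of Pard3 to the summed Par6 genes overlapped, at 1.07 ± 0.087 and 1.00 ± 0.026. These ratios contain the same Prkci values as above and were formed after those values were seen, so they are given without a test.

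In the Crumbs complex, none of the 3 genes separated by group. Crb3, the short transmembrane protein that marks the apical membrane, lies on chromosome 17 from 57062277 to 57065914. It was at 15.4, 12.4 and 10.6 FPKM in controls and at 18.2, 11.1 and 9.77 under blebbistatin, the widest relative spread of any member (SD of 34.6% of the treated mean). Replicate 1 was the highest and replicate 3 the lowest in both groups. The log2 difference was -0.0064 ± 0.22 (SE, adjusted p = 0.999), and its unadjusted 95% interval, from -0.506 to 0.493, was the widest among the members.

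Mpp5 encodes Pals1, the MAGUK adaptor that joins Crb3 to Patj. It lies on chromosome 12 from 78748947 to 78840713 and was at 10.4, 13.5 and 11.2 FPKM in controls and 11.5, 12.6 and 11.04 under blebbistatin, which lay within the control range. The group means were 11.7 FPKM in both, with a log2 difference of 0.0050 ± 0.11 (SE, adjusted p = 0.999). Inadl encodes Patj, a scaffold with many PDZ domains, and lies on chromosome 4 from 98395826 to 98719603. It was at 15.6, 19.1 and 16.5 FPKM in controls and 17.96, 16.2 and 14.8 under blebbistatin. The groups overlapped, though blebbistatin replicate 3 lay below every control (log2 difference -0.060 ± 0.11, adjusted p = 0.989).

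The Scribble complex likewise showed overlapping groups. Scrib, the leucine-rich repeat and PDZ scaffold of the basolateral membrane, lies on chromosome 15 from 76047186 to 76069730. It was at 33.2, 33.0 and 37.2 FPKM in controls and 37.2, 32.4 and 33.9 under blebbistatin, a log2 difference of 0.0010 ± 0.09 (SE, adjusted p = 0.999). The groups overlapped. Dlg1, a MAGUK scaffold, lies on chromosome 16 from 31663443 to 31873356 and was at 16.1, 19.5 and 16.8 FPKM in controls and 17.4, 18.9 and 18.2 under blebbistatin (log2 difference 0.060 ± 0.10, adjusted p = 0.986). Leaving out 1 library took it from 0.0054 (without control replicate 1) to 0.138 (without control replicate 2). Llgl2, one of the Lgl proteins that atypical protein kinase C phosphorylates, lies on chromosome 11 from 115824058 to 115855780. Its values of 14.1, 13.3 and 12.1 FPKM in controls and 14.3, 12.7 and 11.7 under blebbistatin followed the same order of replicates in both groups (log2 difference -0.033 ± 0.10, adjusted p = 0.998).

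Mark2 encodes Par-1b, a kinase of the basolateral side that phosphorylates Par3 and microtubule-associated proteins. The gene lies on chromosome 19 from 7275396 to 7341860, on the minus strand, as is Scrib on its chromosome; the other 8 members lie on the plus strand. Its summed level was 25.8, 29.6 and 26.2 FPKM in controls and 30.1, 27.4 and 24.4 under blebbistatin. The treated libraries spanned the controls on both sides, and the log2 difference was 0.0019 ± 0.10 (SE, adjusted p = 0.999). In the deposited annotation the exons of the 10 genes are free of overlap with other genes.

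**Figure D2:**
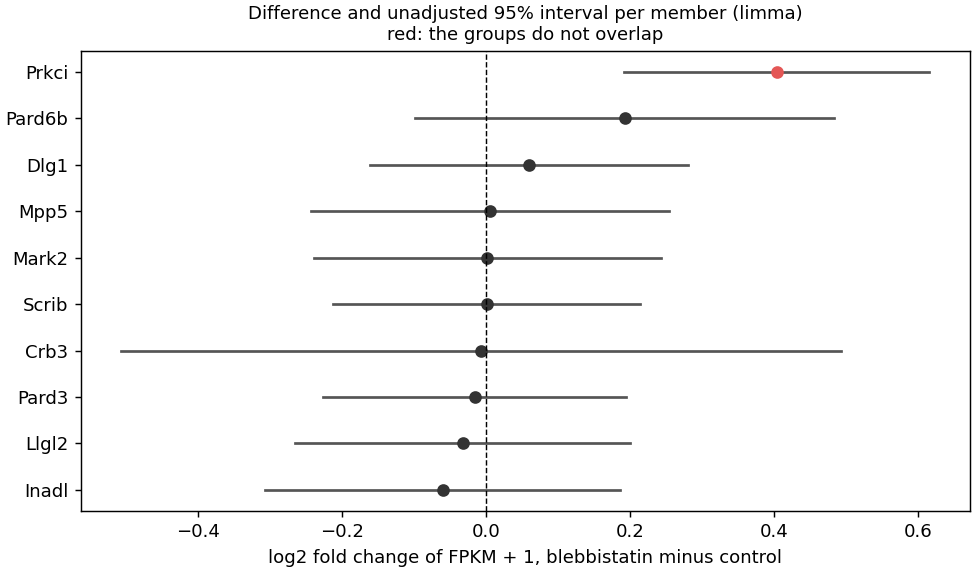
Log2 difference of FPKM + 1, blebbistatin minus control (horizontal axis), for each member with its unadjusted 95% interval from limma. The interval of Prkci, from 0.192 to 0.615, is the 1 that leaves out 0, and those of the other 9 members lie between -0.506 and 0.493.

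For the 9 members other than Prkci the data limit how large a difference could be. Leaving aside Crb3 and Pard6b, the unadjusted 95% intervals of Pard3, Mpp5, Inadl, Scrib, Dlg1, Llgl2 and Mark2 ran from -0.307 (the lower bound of Inadl) to 0.280 (the upper bound of Dlg1) on the log2(FPKM + 1) scale. The interval of Pard6b ran from -0.099 to 0.484. Such intervals do not show that the genes were equal in both groups.

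The order of levels, in FPKM and therefore per length, was Prkci (mean of 39.6 over the 6 libraries), Pard3 (37.4), Scrib (34.5), Mark2 (27.3), Dlg1 (17.8), Inadl (16.7), Llgl2 (13.01), Crb3 (12.9), Mpp5 (11.7) and Pard6b (6.35). Prkci and Pard3 overlapped in range, Prkci being higher in 3 of 6 libraries, the treated ones. Pard3 and Scrib, Dlg1 and Inadl, Llgl2 and Crb3, and Crb3 and Mpp5 also overlapped. The ranges of Scrib and Mark2, of Mark2 and Dlg1, of Inadl and Llgl2, and of Mpp5 and Pard6b did not overlap, with the first of each pair higher in 6 of 6 libraries.

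Each member belongs to a family of related genes, and these families differed in which relative was most abundant. Prkci made up 91.5 ± 1.72% of the summed FPKM of the atypical protein kinase C genes in controls and 94.5 ± 0.52% under blebbistatin (SD, n = 3), the rest being Prkcz. Prkcz was at 3.77, 2.94 and 2.70 FPKM in controls and 3.08, 2.53 and 2.32 under blebbistatin, with overlap (log2 difference -0.18 ± 0.13, SE, adjusted p = 0.848), and its difference was -0.076 without control replicate 1. Crb3 was nearly the sole Crumbs gene, at 98.7% to 99.5% of the family in every library. Pard3 held 97.5% to 98.5% of its family beside Pard3b.

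Pard6b, Llgl2 and Dlg1 were not the leading relative. Pard6b made up 16.7 ± 3.01% of the summed Par6 genes in controls and 18.4 ± 0.71% under blebbistatin, whereas Pard6g made up 65.8 ± 0.88% and 65.4 ± 0.29%. Llgl2 made up 23.8 ± 0.56% of the Lgl pair in controls and 23.5 ± 0.59% under blebbistatin, the rest being Llgl1. Dlg5 was the highest Dlg gene at 26.2 to 31.2 FPKM, above Dlg1. Mark2 was the highest of the Par-1 kinases in every library, holding 33.2 ± 1.77% of the family in controls and 34.1 ± 1.77% under blebbistatin.

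Shares did not overlap between the groups in the kinase family, where the share of Prkci was higher in every treated library. That share contains the same Prkci values as above. Shares without overlap were also found in 2 more families, those of Inadl and Mark2, though the share of Mark2 itself overlapped. In the Par6, Par3, Crumbs, Dlg and Lgl families all shares overlapped. Inadl held 56.6 ± 1.21% of its pair with Mpdz in controls and 51.1 ± 1.52% under blebbistatin. Mpdz, the paralog MUPP1, was at 11.6, 14.3 and 13.4 FPKM in controls and 16.3, 15.2 and 15.1 under blebbistatin. Mark4 held 27.8 ± 0.92% of the Par-1 kinases in controls and 24.1 ± 0.29% under blebbistatin, while Mark3 held 25.4 ± 0.74% and 27.4 ± 0.46%. The level of Mark4 was 23.3, 22.6 and 22.4 FPKM in controls and 19.9, 19.7 and 18.2 under blebbistatin, all 3 below the controls. Family shares were not tested, and neither Mpdz nor Mark4 passed the gene test (adjusted p = 0.489 for Mpdz and 0.351 for Mark4, limma). No background was computed for family shares. In level, the groups did not overlap for 14.3% of all tested genes.

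**Figure D3:**
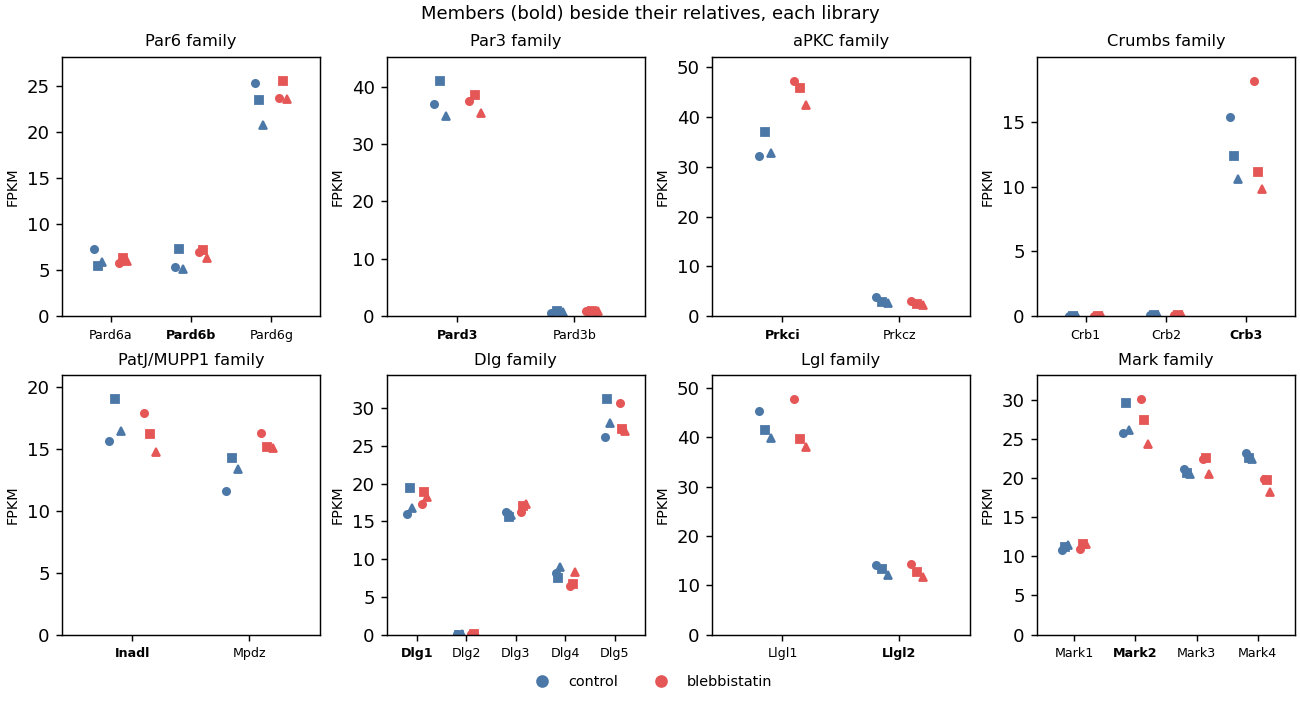
FPKM of the members (bold) and their relatives in each library (vertical axes, starting at 0 and scaled per panel), controls in blue and blebbistatin in red, with circles, squares and triangles for replicates 1 to 3. Pard6g stands above Pard6b and Llgl1 above Llgl2, while Prkci, Pard3 and Crb3 make up nearly all of their families.

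Isoforms were examined for the 5 members with several annotated transcripts. The transcript test also held the sole transcripts of the other 5 members, whose values are those of the gene. Of the 19 member transcripts tested, 0 passed (0.00692% of 14460 transcripts did, limma). At an unadjusted p under 0.05 there were 2, against 8.08% of all tested transcripts, and for 2 the groups did not overlap, against 13.3%. These were the sole transcript of Prkci, which repeats the gene result, and NM_001080388 of Mark2. In the test of transcript shares, 13 transcripts of 4 members entered, 0 passed (0% of 4997 did), and 1 had an unadjusted p under 0.05, against 4.56% of all tested shares. The groups did not overlap for that 1, against 9.37%.

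The Mark2 transcripts differ by the long exon of 162 bases (54 codons), the short exon of 27 bases (9 codons) and the first exon. NM_007928 and NM_001080390 hold the long exon, NM_001080389 holds the short one, and NM_001080388 holds neither. NM_001080388 was at 6.61, 5.99 and 4.19 FPKM in controls and 8.33, 7.03 and 8.30 under blebbistatin. All treated libraries were above all controls, though blebbistatin replicate 2 exceeded control replicate 1 by little. The log2 difference was 0.45 ± 0.16 (SE, unadjusted p = 0.024, adjusted p = 0.487, limma), and without control replicate 3, the lowest library, it was 0.28.

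As a share of the summed Mark2 FPKM, NM_001080388 went from 25.6%, 20.2% and 16.0% in controls to 27.6%, 25.6% and 34.1% under blebbistatin. The closest libraries, control replicate 1 and blebbistatin replicate 2, lay within a fraction of a percentage point of each other. The difference was 8.51 percentage points (20.6 ± 4.83% and 29.1 ± 4.42%, SD, n = 3, adjusted p = 0.975, limma), with values from 6.03 to 11.02 when any 1 library was left out. The leading transcript, NM_007928, held 55.2 ± 6.02% in controls and 49.1 ± 4.30% under blebbistatin, with overlap (adjusted p = 1.00). Its level was 13.9, 18.3 and 13.1 FPKM in controls and 16.3, 12.8 and 11.3 under blebbistatin (log2 difference -0.15 ± 0.16, adjusted p = 0.975). Its difference was -0.016 without control replicate 2 and -0.29 without blebbistatin replicate 1, and its share difference of -6.08 percentage points was -2.80 without control replicate 2. Summed over its 2 transcripts, the long exon was held by 62.0%, 65.1% and 68.2% of Mark2 FPKM in controls and by 58.9%, 60.2% and 54.8% under blebbistatin, lower in all 3. Shares of 1 gene depend on each other, so this is largely the other side of the higher share of NM_001080388 and not a second result. NM_001080390, which is in the sum, held 8.19%, 3.39% and 18.3% in controls and 4.86%, 13.6% and 8.24% under blebbistatin. The sum was formed after the transcript values were seen and was not tested, and no background was computed for such sums. The short exon was held by 14.3 ± 1.74% and 12.9 ± 1.59% (adjusted p = 1.00 for its transcript NM_001080389).

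**Figure D4:**
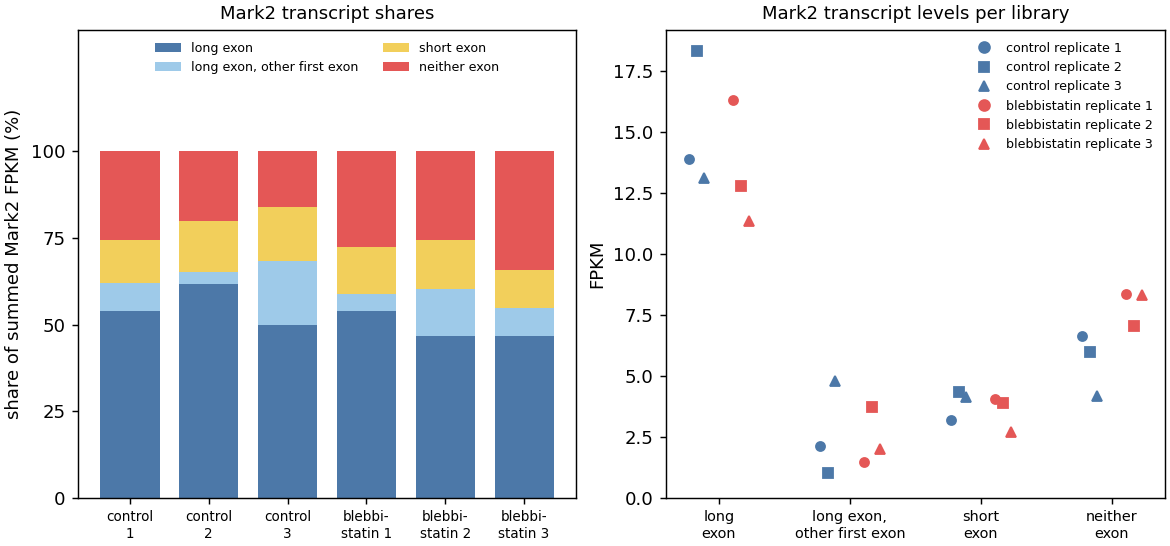
Left, share of each of the 4 annotated Mark2 transcripts in summed Mark2 FPKM (percent) per library; right, the level of each transcript in FPKM, with controls in blue, blebbistatin in red and marker shape for the replicate number. The transcript with neither exon takes 16.0% to 25.6% in controls and 25.6% to 34.1% under blebbistatin.

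For Dlg1, 3 coding transcripts shared most of the signal and no share separated the groups. The longer exon, with either of its starts, and the shorter exon take each other's place in these transcripts. The forms with the shorter exon held 36.5 ± 5.39% of Dlg1 FPKM in controls and 35.1 ± 4.04% under blebbistatin. The upstream exon of 99 bases (33 codons) was held by 65.2 ± 3.69% and 65.02 ± 4.51%. The leading transcript NM_007862, which has the upstream and the longer exon, was at 4.78, 7.99 and 5.97 FPKM in controls and 6.84, 7.55 and 5.81 under blebbistatin (log2 difference 0.11 ± 0.17, adjusted p = 0.993). Of the Dlg1 transcripts, the smallest p in the share test was that of NM_001252435, with the upstream and the shorter exon, at 29.6 ± 3.71% and 27.8 ± 4.54% (adjusted p = 1.00), and its sign depended on the libraries used.

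Pard3 was read mainly as its longest transcript NM_033620, of 25 exons, at 59.0 ± 2.44% of Pard3 FPKM in controls and 58.4 ± 1.86% under blebbistatin. NM_001122850, which ends early and has 16 exons, held 30.1 ± 2.37% and 31.4 ± 2.44%. Inadl was read mainly as NM_172696, of 44 exons, at 81.8 ± 5.42% and 81.1 ± 5.08%. Llgl2 was almost wholly NM_145438: the form with the 72-base extension (24 codons) held at most 1.57% in any library. None of these shares separated the groups.

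The wider circle of polarity genes was read from 6 lists of relatives and partners, 79 genes in all, of which 68 were tested. Of these, 0 passed in either direction (limma), where 0.078% of all tested genes did. At an unadjusted p under 0.05 there were 6 (3 higher, 3 lower), against 9.36% of all tested genes. The groups did not overlap for 9 (3 higher, 6 lower), against 14.3% (7.48% for higher and 6.8% for lower). The mean was higher for 34 and lower for 34 (median log2 difference 0.0040), where 55.2% of all tested genes had the higher mean. As a whole the lists were therefore near the background of all genes.

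Among Crumbs partners, 6 of 8 tested genes had the higher mean under blebbistatin (median log2 difference 0.11), against 55.2% of all tested genes. Of the 8, 0 passed, against 0.078% of all tested genes. A list of 8 genes is too short to set this count apart from that share. Amotl2, an angiomotin-family scaffold and a known YAP target, was at 7.21, 8.12 and 6.81 FPKM in controls and 14.9, 12.0 and 10.1 under blebbistatin (log2 difference 0.66 ± 0.14, SE, adjusted p = 0.125). Mpdz, described above, had a log2 difference of 0.23 ± 0.10. Mpp7, a MAGUK adaptor, was at 4.78 ± 1.19 FPKM in controls and 6.26 ± 0.51 under blebbistatin, with overlap (0.35 ± 0.15, adjusted p = 0.534), and its difference was 0.19 without control replicate 1. Crb1, Crb2, Lin7a, Lin7b and Mpp3 were below the filter, at most 0.921 FPKM in any library.

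Among junction scaffolds and adhesion partners, 7 of 15 tested genes had higher and 8 lower means, where 55.2% of all tested genes were higher. Of the 15, 0 passed, against 0.078% of all tested genes. Cgnl1, which encodes paracingulin, an adaptor of tight and adherens junctions, was at 80.1, 92.9 and 88.4 FPKM in controls and 53.6, 64.2 and 62.2 under blebbistatin. All treated libraries were below all controls (log2 difference -0.53 ± 0.10, adjusted p = 0.104), the smallest p of any gene in the 6 lists. Pvrl1, the adhesion molecule nectin-1, was at 12.7 ± 0.69 and 15.1 ± 1.47 FPKM, without overlap (0.24 ± 0.09, adjusted p = 0.471). Marveld2, the tricellular junction protein tricellulin, was at 15.8 ± 2.19 and 13.6 ± 1.40 FPKM, with overlap (adjusted p = 0.761).

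Among apical membrane and trafficking genes, 6 of 13 tested genes had higher and 7 lower means, where 55.2% of all tested genes were higher. Of the 13, 0 passed, against 0.078% of all tested genes. Myo5b, a motor that carries Rab11 vesicles to the apical side, was at 3.35, 5.11 and 3.30 FPKM in controls and 2.88, 2.45 and 2.04 under blebbistatin (log2 difference -0.50 ± 0.16, adjusted p = 0.311). Rab25, an epithelial Rab of the same recycling route, was at 60.3, 51.6 and 51.7 FPKM in controls and 46.4, 51.0 and 43.0 under blebbistatin (-0.22 ± 0.10, adjusted p = 0.603). Both lay lower in every treated library than in any control, the 2 of 13 genes without overlap, against 14.3% of all tested genes. Rab25 separated narrowly, at 51.0 FPKM in blebbistatin replicate 2 against 51.6 in control replicate 2. Rab11a and Rab11fip1, of the same route, overlapped (log2 differences -0.14 and -0.016, adjusted p = 0.899 and 0.999, limma). The difference of Myo5b was -0.33 without control replicate 2, and that of Rab25 was -0.14 without control replicate 1. Ezr, the linker ezrin between the apical membrane and actin, was at 119 ± 7.63 and 105 ± 8.07 FPKM, with overlap (adjusted p = 0.719).

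**Figure D5:**
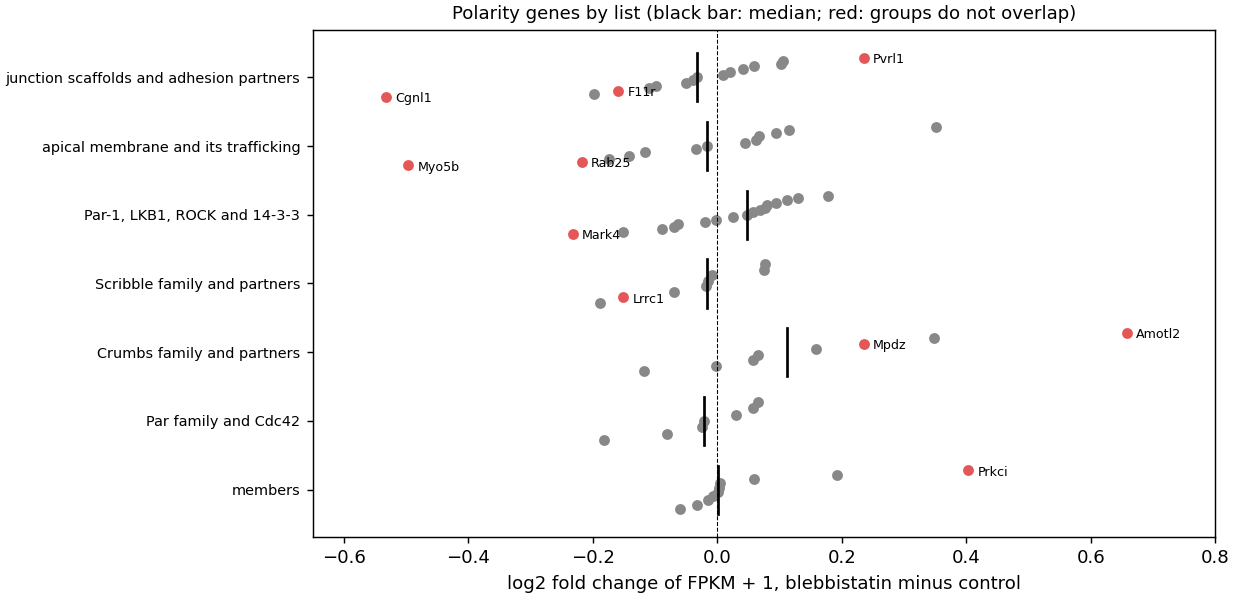
Log2 difference of FPKM + 1, blebbistatin minus control (horizontal axis), for each tested gene of the members and of the 6 wider lists, with the median of each list as a black bar and genes whose groups do not overlap in red and named. Prkci (0.40), Amotl2 (0.66), Cgnl1 (-0.53) and Myo5b (-0.50) lie farthest from 0 among the named genes.

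The remaining 3 lists had 1 gene with an unadjusted p under 0.05, Mark4, against 9.36% of all tested genes. Over all tested genes, 55.2% had the higher mean under blebbistatin. Of the 7 tested genes of the Par family with Cdc42, 3 had higher and 4 lower means, and those of smallest p were Prkcz, Tiam1, a Rac exchange factor that binds Par3 (28.1 ± 2.09 and 26.6 ± 3.17 FPKM), and Pard6g (23.2 ± 2.30 and 24.3 ± 1.12). Of the 8 tested Scribble relatives, 2 had higher and 6 lower means, with Dlg4 (8.21 ± 0.69 and 7.11 ± 1.00), Lrrc1 (26.2 ± 2.86 and 23.4 ± 0.69) and Dlg3 (15.9 ± 0.36 and 16.9 ± 0.54) first by p. Lrrc1, a relative of Scrib, was the 1 of these whose groups did not overlap, with a log2 difference of -0.15 that was -0.066 without control replicate 2. Of the 17 genes of the Par-1, LKB1, ROCK and 14-3-3 list, 10 had higher and 7 lower means. Mark4 came first by p (log2 difference -0.23 ± 0.08, SE), followed by Stradb (6.21 ± 0.25 and 6.90 ± 0.48) and Cab39l (6.78 ± 0.60 and 7.41 ± 0.57), which encode partners of the Par-1 activator LKB1. None of the genes in these 3 lists passed (adjusted p of at least 0.351, limma), where 0.078% of all tested genes did.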

How the data were processed

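Levels are FPKM from the deposited tables of genes and transcripts, computed by the authors. The submitters' processing notes name mm10, Cufflinks 2.2.1, Bowtie2 2.2.3 and TopHat2 2.0.13. Columns were matched by name, with BB read as blebbistatin and an unnumbered column as replicate 1. Depth was estimated from the FPKM step of 1 fragment in genes with 1 transcript. Values were tested as log2(FPKM + 1), which understates changes of low genes, with limma 3.58.1 (R 4.3.3, mean-variance trend, treatment as the only term), over features with a mean of at least 1 FPKM. Benjamini-Hochberg adjustment was over all features, with a threshold of 0.05. Transcript shares were tested on the arcsine square root scale where the gene summed to at least 5 FPKM on average and the mean share lay between 0.05 and 0.95. Scripts were tested on simulated data. The members and lists were chosen with earlier results of these data known. Named genes are all members, up to 3 genes of smallest p per list, up to 4 transcripts of smallest p per transcript test, and the leading transcript of each member with several. Relatives and partners outside this rule (Dlg5, Llgl1, Mark3, Pard3b, Rab11a, Rab11fip1, the untested genes) and other transcripts were named after their values were seen. Alternatives covered the pseudocount, filter, scaling, array weights, replicate block, each library left out and, added after seeing the data, removal of a trend with transcript length.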

Additional observations from a re-analysis of the deposited data

How the results depend on the processing

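No alternative gave a call among the members, their transcripts or their shares. Prkci kept its direction in all 14 alternatives, with log2 differences from 0.367 to 0.463 and adjusted p from 0.0655 to 0.394. Of 36 single values recomputed under the alternatives, 27 never changed sign. The median of the members moved by less than the spread between replicates in each alternative.

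Counts over all genes were 14 after quantile normalization, 1 with no filter, 27 at a 5 FPKM minimum, 2 after median-of-ratios rescaling, 57 with array weights and 19 after removal of the length trend (chosen after seeing the data), against 9, and ranged from 1 to 13 when 1 library was left out. Transcript counts were 3 after quantile normalization, 9 with no filter and 2 at a 5 FPKM minimum, against 1, and ranged from 1 to 11 with 1 library left out. Shares gave 1 call at a minimum sum of 1 FPKM and 0 to 2 with 1 library left out. The cause was not tested.

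With the replicate block, a pairing the labels do not state, 144 genes passed, and 1 of the wider polarity genes did, Cgnl1 (adjusted p = 0.0338). Deviations of same-numbered libraries correlated across genes at 0.182, 0.094 and 0.253, and each library correlated best with its own number, a hint from the data and not from the design. The block called 0 members, and Prkci had an adjusted p of 0.0655.

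Signs that turned were those of values near 0. Mpp5 was at -0.011 after quantile normalization, -0.011 after median-of-ratios rescaling and -0.017 without the length trend. Scrib was at -0.015, -0.016 and -0.021 under these and at -0.056 with array weights, and Mark2 at -0.010, -0.015, -0.017 and -0.030. With 1 library left out, values ranged from -0.066 to 0.047 for Pard3, -0.255 to 0.161 for Crb3, -0.066 to 0.102 for Mpp5, -0.128 to 0.018 for Inadl, -0.053 to 0.055 for Scrib, -0.104 to 0.031 for Llgl2, -0.070 to 0.079 for Mark2, -0.0092 to 0.128 for Pard6g and -3.29 to 0.765 percentage points for the share of NM_001252435. Of the wider genes with 1 library left out, Marveld2 was at -0.106 without control replicate 2, Ezr at -0.109 and Dlg4 at -0.287 without blebbistatin replicate 3, and Cab39l at 0.050 and Tiam1 at -0.023 without control replicates 3 and 2. Control replicate 2 was the deepest library. For low values such as those of Pard6b the scale of log2(FPKM + 1) limits the size of a difference.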

Other observations

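Blebbistatin replicate 3 held the lowest treated value for 8 of 10 members, where it held the lowest for 44.8% of all tested genes, and the highest for 0. Control replicate 2 held the highest control value for 7 of 10 members, where it did so for 39.5% of all genes. The mean deviation of the members from their 6-library mean on the log2(FPKM + 1) scale was -0.060, 0.080 and -0.103 in control replicates 1 to 3 and 0.132, 0.030 and -0.080 in blebbistatin replicates 1 to 3. These libraries were picked out after their values were seen, and no test was made.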
